A study of Mus musculus with 18 samples.

Results

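The data described here are the response that bone marrow-derived macrophages of C57BL/6J mice (B6) made to LPS in the presence of 5z7, read as gene counts. The 3 B6 libraries treated with LPS/5z7 for 2 hours (library numbers 3, 6 and 9) were compared with the 3 unstimulated B6 libraries (1, 4 and 7), so 6 of the 18 libraries of the series enter the comparison, over 13068 genes. The 3 B6 libraries given LPS alone for 2 hours (2, 5 and 8) and the 6 unstimulated and LPS/5z7 libraries from mice with the RIPK1 T169A knock-in served for reference; these mice, made for the study, carry alanine in place of threonine in the kinase RIPK1. All marrow cultures ran for 7 days with 20% fetal bovine serum and 30% L929 cell supernatant, which supplies the growth factor M-CSF, and the series holds no library given 5z7 without LPS. The labels do not spell out 5z7, commonly (5Z)-7-oxozeaenol, a resorcylic acid lactone that inhibits the kinase TAK1.

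LPS, a component of the outer membrane of Gram-negative bacteria, is sensed by TLR4 with its co-receptors CD14 and MD-2. The adaptor MyD88 leads through IRAK kinases and TRAF6 to TAK1, which activates the IKK complex, and with it NF-kB, and the p38, JNK and ERK MAP kinase cascades. A second adaptor, TRIF, leads to TBK1 and IRF3, to interferon beta, and by autocrine interferon signalling to interferon-stimulated genes. TAK1 also restrains RIPK1-dependent cell death, so that macrophages given LPS while TAK1 is blocked can die.

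Depth was 14.65 to 27.37 M counts in the 6 libraries. Values are counts per M (CPM), scaled by TMM, in the order 1, 4, 7 for unstimulated, 2, 5, 8 for LPS and 3, 6, 9 for LPS/5z7 libraries; changes are log2 fold changes ± SE, tested with edgeR (quasi-likelihood F-test; p adjusted after Benjamini and Hochberg). Whether a group's 3 libraries are separate mice or cultures is not stated. The p-values thus reflect only the variation between libraries of a group, which may be technical. This variation was estimated over all 18 libraries, those of T169A macrophages given LPS alone included. Unstimulated library 7 stood apart: its counts differed from those of libraries 1 and 4 by 81.3 and 101 times the variance of counting, against 5.92 between 1 and 4. Its median log2 ratio to the other 2 unstimulated libraries was 0.28 in the 2595 genes with the shortest exon length and -0.48 in the 2595 with the longest, while each LPS/5z7 library stayed within 0.03 of the other 2. The part of this in the results was not tested; counts for gene lists without library 7 are given where they moved by over 1.5 times. Macrophage markers were abundant in all 6 libraries: Lyz2, the lysozyme gene, stood at 24746, 24530.0 and 35351 CPM unstimulated and 26755, 26266 and 29601 CPM with LPS/5z7, and Cd68 at 1407, 1343 and 1450.3 and 1344, 1373 and 1489 CPM. In bulk RNA, fewer cells of a kind and less RNA per cell cannot be told apart.

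With LPS/5z7, 3610 genes (27.6% of those tested) were higher than unstimulated and 3647 (27.9%) were lower. Counts of list members called against unstimulated are to be read beside these 2 shares. Changes of 2-fold or more were called for 1667 genes upward (12.8%) and 1495 downward (11.4%), and in 58.8% of genes the LPS/5z7 libraries lay all above or all below the unstimulated ones. The balance was uneven among the large changes: 239 genes rose and 42 fell at least 16-fold. With no TMM factor, on library size alone, the median of all genes moved by -0.42 on the log2 scale and the split became 2075 higher and 7334 lower, so that 22.1% of calls in place of 49.7% were higher; all changes below are relative to the TMM centre. Scaling with DESeq2 size factors gave 3635 and 3627.

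**Figure D1:**
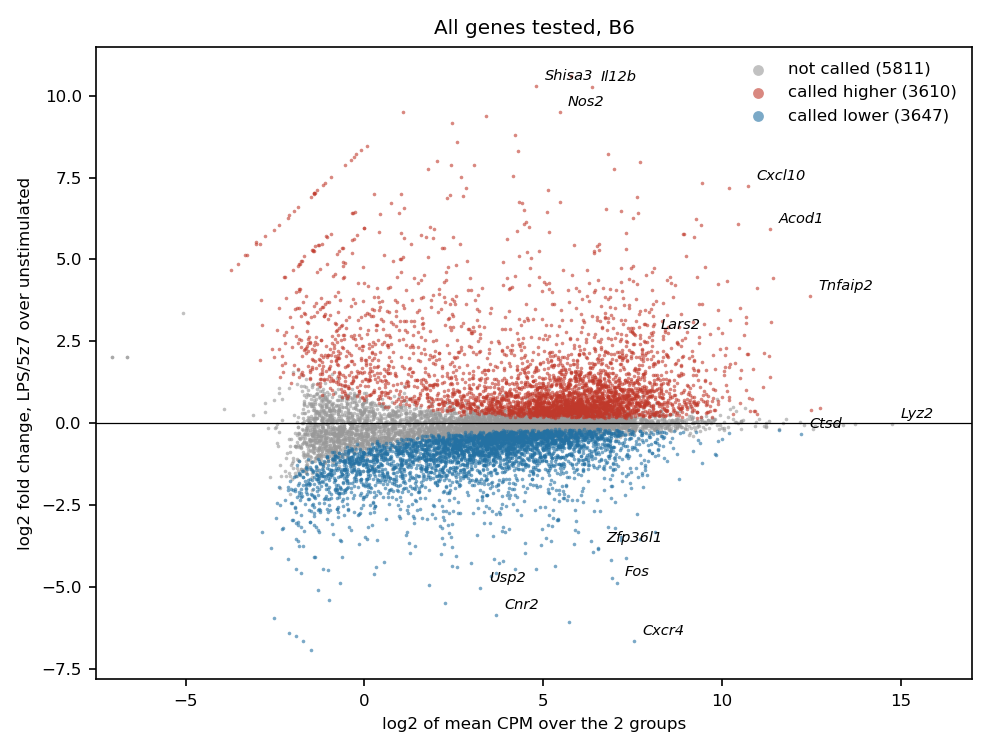
Each point is 1 tested gene; the x axis is the log2 of its mean CPM over the B6 unstimulated and LPS/5z7 groups and the y axis its log2 fold change, with called genes in colour. A reader should see 3610 genes called higher and 3647 called lower, with Il12b and Shisa3 further from 0 than Cxcr4 and Cnr2; 2 genes at 0 CPM in both groups are not drawn.

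Among genes at 10 CPM or more with LPS/5z7, those with the largest rises were almost silent in unstimulated cells. Il12b, the shared subunit of interleukins 12 and 23, stood at 0.0408, 0.236 and 0.0538 CPM unstimulated and 166, 175 and 153 CPM with LPS/5z7 (10.26 ± 0.29, adjusted p = 3.02e-14). Nos2, the inducible nitric oxide synthase, went from 0.0408, 0.177 and 0.108 to 76.7, 77.7 and 109 CPM (9.49 ± 0.28, adjusted p = 4.33e-14). Adamts4, a protease that cuts aggrecan, went from 0.0408, 0.0886 and 0.0538 to 102, 107 and 122 CPM (10.61 ± 0.18, adjusted p = 1.45e-16). These genes were picked among those whose LPS/5z7 libraries all lay above the unstimulated ones, so their separation is no added support. Unstimulated library 4 held 8 of the 10 unstimulated counts of Il12b and 6 of the 9 of Nos2. Without it, their fitted changes were 11.62 and 10.18. Shisa3, Il6 and Col27a1 had 3, 2 and 1 counts in the 3 unstimulated libraries together. Their ratios over unstimulated were 1430 (95% counting interval 490 to 6950), 828 (229 to 6850) and 835 (149 to 33000), intervals that cover counting error only. The ratios of Adamts4 and Plat, on 5 and 6 unstimulated counts, were 1680 (722 to 5190) and 480 (220 to 1310). Those of Il12b and Nos2 were 1270 (690 to 2650) and 742 (391 to 1620). These intervals are wider than the SE of the fitted changes conveys. Plat, the tissue plasminogen activator (8.8 ± 0.28, or 9.47 without unstimulated library 4), Il27, a subunit of interleukin 27 (8.21 ± 0.25), and Rnd1, a small GTPase (7.98 ± 0.20), completed the 12 largest rises together with Synpo2, Tmem200b and Itgb8.

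Among genes at 10 CPM or more unstimulated, those with the largest falls were nearly lost. Cxcr4, the receptor for the chemokine CXCL12, stood at 382, 368 and 353 CPM unstimulated and 2.85, 4.32 and 3.98 CPM with LPS/5z7 (-6.64 ± 0.14, adjusted p = 9.49e-16). Lpar6, a lysophosphatidic acid receptor, went from 98.1, 87.5 and 124 to 1.9, 1.36 and 1.25 CPM (-6.07 ± 0.21, adjusted p = 2.51e-13). Cnr2, the cannabinoid receptor of immune cells, went from 27.2, 24.6 and 24.1 to 0.271, 0.533 and 0.535 CPM (-5.85 ± 0.18, adjusted p = 7.84e-14). These genes, too, were picked among those whose LPS/5z7 and unstimulated libraries did not overlap. Usp2, a deubiquitinase (-5.03 ± 0.28), Irf2bp2, a transcriptional corepressor (-4.72 ± 0.19), Dusp6, the ERK phosphatase (-4.65 ± 0.18), Fbxo32, a ubiquitin ligase subunit (-4.46 ± 0.26), and the orphan receptor gene Gpr146 (-4.43 ± 0.17) were also among the 12 largest falls.

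Inflammatory cytokines were raised as a group. Of 24 tested, 20 were higher and 2 lower, with a median log2 fold change of 4.20 against -0.05 over all genes. Tnf, encoding tumour necrosis factor, stood at 103, 135 and 80.9 CPM unstimulated and 2151, 2235 and 2099 CPM with LPS/5z7 (4.34 ± 0.22, adjusted p = 2.65e-11). Il1b, interleukin-1 beta, went from 34.4, 46.9 and 31.1 to 737, 722 and 727 CPM (4.28 ± 0.25, adjusted p = 1.76e-10). Il10, the anti-inflammatory interleukin-10, went from 1.02, 1.0 and 1.18 to 8.82, 7.58 and 9.21 CPM (3.01 ± 0.26, adjusted p = 2.67e-08). In these 3 genes the groups were fully separate, and all 3 LPS/5z7 libraries were also below all 3 LPS libraries, which held 4667, 4806 and 5368 CPM of Tnf, 7187, 7724 and 8975 of Il1b and 120.3, 128 and 161 of Il10. Tested directly, the difference from LPS was -1.19 ± 0.19 for Tnf (adjusted p = 0.000473), -3.45 ± 0.24 for Il1b (adjusted p = 6.42e-08) and -4.0 ± 0.20 for Il10 (adjusted p = 1.54e-09). Over the cytokine list, 18 of 24 were lower with LPS/5z7 than with LPS and 0 higher, where 887 of all genes (6.79%) were lower and 919 (7.03%) higher. The number of genes higher than with LPS fell to between 471 and 605 when any 1 of libraries 2, 3, 5, 6, 8 and 9 was left out. Il15, a growth factor of natural killer and memory T cells, rose to 227, 222 and 218 CPM with LPS/5z7 (4.11 ± 0.15) and was not called against LPS (-0.05 ± 0.13, 95% interval -0.33 to 0.23). The 2 members that fell were Osm, the gp130 cytokine oncostatin M, and Vegfa, the angiogenic growth factor (-1.94 ± 0.15).

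Chemokines followed, with 17 of 19 tested higher, 1 lower and a median of 5.27. Cxcl11, a CXCR3 ligand, went from 0.123, 0.177 and 0.269 to 35.6, 36.4 and 33.7 CPM (7.55 ± 0.28, adjusted p = 7.42e-13). Ccl22, a CCR4 ligand, went from 0.163, 0.325 and 0.807 to 41.8, 40.5 and 43.8 CPM (6.72 ± 0.23, adjusted p = 2.2e-13), or 7.33 without unstimulated library 7, which held the most Ccl22 of its group. The neutrophil attractant Cxcl3 rose by 5.87 ± 0.21 and Ccl3, a CCR1 ligand, by 4.48 ± 0.17. Against LPS, 11 of the 19 were lower and 1 higher, beside 6.79% and 7.03% of all genes. The members differed widely. Cxcl3 lay at -2.38 ± 0.15 and Ccl3 at -2.24 ± 0.15 (adjusted p = 2.09e-08 and 4.38e-08). Ccl22 lay at 0.19 ± 0.14 with a 95% interval of -0.11 to 0.49 and was not called. Cxcl14 fell (-0.77 ± 0.15), and Ccl6 was not called (0.21 ± 0.18, adjusted p = 0.366), although without library 7 it was (0.55, adjusted p = 0.00126).

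**Figure D2:**
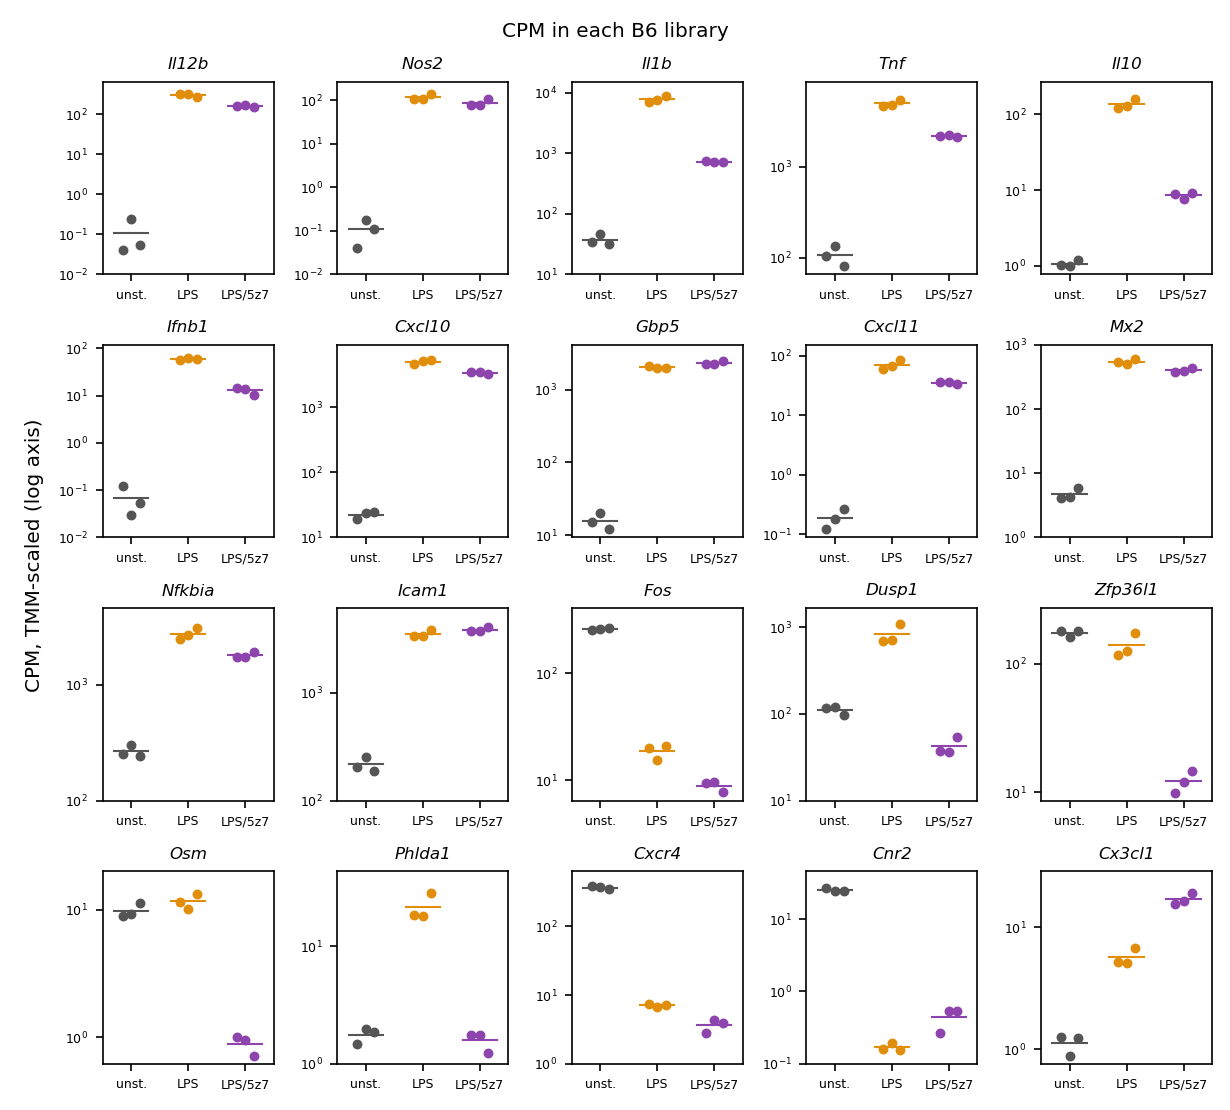
Each panel is 1 gene and each point 1 B6 library, with TMM-scaled CPM on a log axis and the group mean as a line; points within a group are in the order of the library numbers. Il1b, Il10 and Ifnb1 with LPS/5z7 lie between the unstimulated and LPS libraries, Gbp5 and Icam1 overlap or exceed the LPS libraries, and Zfp36l1 and Osm lie below both.

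NF-kB subunits and the feedback regulators they induce were raised nearly without exception: 29 of 30 tested were higher, with a median of 2.14. Nfkbia, which encodes the inhibitor IkB-alpha, stood at 252, 305 and 245 CPM unstimulated, 2495, 2657 and 3104 with LPS and 1735, 1741 and 1895 with LPS/5z7. It rose by 2.74 ± 0.16 with LPS/5z7 (adjusted p = 1.6e-10) and its difference from LPS was -0.62 ± 0.15 (adjusted p = 0.0107), with no overlap between any 2 groups. Tnfaip3, the ubiquitin-editing inhibitor A20, went from 104, 142 and 63.8 to 1238, 1318 and 1312 CPM (3.64 ± 0.26, adjusted p = 1.85e-09) and its difference from LPS was -1.48 ± 0.23. Traf1, a TNF receptor adaptor (4.74 ± 0.16), Nfkbiz, the nuclear co-activator IkB-zeta (4.47 ± 0.18), Nfkb1, the p105 precursor (2.46 ± 0.11), and Tnfaip2 (3.88 ± 0.17) rose with them. Against LPS, 12 of the 30 were lower and 1 higher, beside 6.79% and 7.03% of all genes. The single member called lower than unstimulated was Otulin, a deubiquitinase (-0.34 ± 0.12, adjusted p = 0.0248). It was not called without LPS/5z7 library 6 (adjusted p = 0.0606) or unstimulated library 7 (adjusted p = 0.175). Nor was it called with only the 6 libraries or only the 9 B6 libraries in the fit (adjusted p = 0.176 and 0.083).

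Interferon beta and interferon-stimulated genes were higher in 46 of 49 tested, with 0 lower and a median of 3.30. Ifnb1, interferon beta itself, stood at 0.123, 0.0295 and 0.0538 CPM unstimulated, 56, 62.8 and 60 with LPS and 14.8, 13.9 and 10.5 with LPS/5z7. It rose by 7.53 ± 0.36 with LPS/5z7 (adjusted p = 1.11e-11), or by 8.22 without unstimulated library 1. On 5 unstimulated counts, its ratio over unstimulated was 203 (95% counting interval 86.8 to 628). Its difference from LPS was -2.19 ± 0.17 (adjusted p = 2.02e-07). Several interferon-stimulated genes stood closer to their LPS levels. Gbp5, a guanylate-binding protein of the inflammasome response, stood at 15.1, 20.2 and 12.1 CPM unstimulated, 2159.7, 1974 and 1972 with LPS and 2243, 2256 and 2469 with LPS/5z7 (7.19 ± 0.27, adjusted p = 7.41e-13), and its LPS/5z7 libraries all lay above its LPS libraries, although the difference from LPS was not called (0.19 ± 0.20, 95% interval -0.24 to 0.62). Cxcl10, a chemokine induced by interferon and NF-kB, stood at 19.1, 23.9 and 24.2, 4651, 5049 and 5254 and 3420.0, 3457 and 3186 CPM in the same order (7.23 ± 0.32, adjusted p = 4.27e-12; against LPS -0.57 ± 0.24, adjusted p = 0.137). Irf1, an interferon regulatory factor (4.26 ± 0.13), Stat2, a signal transducer of the type I receptor (2.5 ± 0.09), and the antiviral GTPase gene Mx2 (6.41 ± 0.18) also rose; against LPS, Irf1 lay at 0.05 ± 0.11 (95% interval -0.19 to 0.29) and Stat2 at 0.04 ± 0.08 (-0.14 to 0.22). Over the list, 6 of 49 were lower than with LPS and 0 higher, beside 6.79% and 7.03% of all genes. The median of the list against LPS was -0.21. The list's members that did not pass the test against unstimulated included Irf8 (0.17 ± 0.18) and Irf2 (0.18 ± 0.13), 2 further interferon regulatory factors.

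The promoters of 4 of these genes are shown: Ifnb1 and Nfkbia, called lower than with LPS, and Cxcl10 and Gbp5, which were not called. The LPS/5z7 libraries of Cxcl10 all lay below its LPS libraries, and it was called lower with a replicate block by running number (-0.57, adjusted p = 0.014) and with only the 9 B6 libraries in the fit (adjusted p = 0.0147). Each run is the 250 bases before the start site from RefSeq, on build GRCm38.p6, written 5′ to 3′ on the gene's strand. Capitals mark matches on either strand to a kB motif (GGG, any 3 bases, TTCC) or an ISRE motif, the interferon-stimulated response element (GAAA, any 2 bases, GAAA), and in Cxcl10 also an AP-1 motif (TGANTCA).
Cxcl10, chr5:92348890-92349139, minus strand: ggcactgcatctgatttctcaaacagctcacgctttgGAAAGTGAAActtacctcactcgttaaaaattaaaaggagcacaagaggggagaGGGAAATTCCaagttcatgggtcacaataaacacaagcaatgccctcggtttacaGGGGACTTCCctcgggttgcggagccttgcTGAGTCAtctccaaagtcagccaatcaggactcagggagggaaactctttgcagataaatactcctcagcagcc
Gbp5, chr3:142496684-142496933, plus strand: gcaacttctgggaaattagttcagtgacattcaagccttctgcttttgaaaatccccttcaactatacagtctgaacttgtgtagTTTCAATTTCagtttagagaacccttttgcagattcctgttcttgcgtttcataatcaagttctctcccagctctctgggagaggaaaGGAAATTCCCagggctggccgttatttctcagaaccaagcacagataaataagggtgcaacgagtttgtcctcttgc
Ifnb1, chr4:88522795-88523044, minus strand: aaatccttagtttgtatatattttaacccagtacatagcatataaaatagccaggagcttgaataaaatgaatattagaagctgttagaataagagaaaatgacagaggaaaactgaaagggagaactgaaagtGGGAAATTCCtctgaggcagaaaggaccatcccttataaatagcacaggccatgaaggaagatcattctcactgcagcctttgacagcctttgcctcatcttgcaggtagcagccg
Nfkbia, chr12:55492648-55492897, minus strand: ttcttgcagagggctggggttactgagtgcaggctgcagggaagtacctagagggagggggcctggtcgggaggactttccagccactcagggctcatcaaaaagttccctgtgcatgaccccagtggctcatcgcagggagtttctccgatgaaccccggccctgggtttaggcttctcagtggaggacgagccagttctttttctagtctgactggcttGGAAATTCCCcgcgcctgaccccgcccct
Counted from the start site to the motif's first base, Cxcl10 has an ISRE match at -213 and kB matches at -159 and -104, with the AP-1 match at -74; Gbp5 has ISRE at -165 and kB at -77. Ifnb1 has a kB match at -116 and Nfkbia one at -29. In the 300-base windows around 12215 start sites of 9592 tested genes (250 bases before and 50 after), 6.47% held the kB motif and 3.35% the ISRE motif, on either strand. Among the genes at least 2-fold higher with LPS/5z7 the shares were 7.65% and 6.93% of 1530 windows, and among those at least 2-fold lower 6.01% and 2.18% of 1282. The interferon list held ISRE in 50% of 46 windows and the NF-kB list held kB in 40.62% of 32, lists that were assembled from known targets of these factors. A match describes letters in the window and not a bound site.

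Of 42 tested members of the TLR4 and TAK1 pathway, 29 were higher (69.0%, against 27.6% of all genes) and 3 lower (7.1%, against 27.9%). Their median was 0.65, and scaled by library size alone the counts were 20 and 11. Mapkapk2, the kinase activated by p38, stood at 324, 352 and 345 CPM unstimulated and 1643, 1648 and 1673 CPM with LPS/5z7 (2.28 ± 0.09, adjusted p = 1.6e-12). Map3k5, the stress kinase ASK1 (2.31 ± 0.10), and Rnf31, the catalytic subunit of the linear ubiquitin ligase (2.08 ± 0.10), rose. Tab1, a subunit that activates TAK1, fell from 27.9, 26.2 and 29.2 to 8.19, 8.29 and 6.96 CPM (-1.83 ± 0.13, adjusted p = 1.97e-09), yet it was higher than with LPS, where it held 4.8, 4.93 and 4.43 CPM (0.72 ± 0.14, adjusted p = 0.00245). Tlr4 went from 96.4, 107 and 52.1 to 32.7, 34.1 and 24 CPM (-1.49 ± 0.26, adjusted p = 0.000111), with library 7 the lowest of the unstimulated group and still above all LPS/5z7 libraries. Its co-receptor gene Cd14 rose (2.12 ± 0.12). Map3k7, which encodes TAK1, stood at 65.5, 65.5 and 46.3 CPM unstimulated and 67.4, 75 and 73.8 CPM with LPS/5z7 and was not called (0.28 ± 0.12, adjusted p = 0.0597). Map3k7 passed without unstimulated library 1 or 4 (adjusted p = 0.034 and 0.0313) and with a replicate block by running number (adjusted p = 0.0147).

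Feedback inhibitors of cytokine receptors, the SOCS family, were higher in 5 of 8 (62.5%, against 27.6% of all genes) and lower in 2 (25%, against 27.9%). Socs3 went from 26.5, 41.2 and 18.3 to 933, 909 and 1164 CPM (5.12 ± 0.33, adjusted p = 6.73e-10), below the 2749, 2712 and 3500.2 CPM of the LPS libraries (-1.58 ± 0.28, adjusted p = 0.0012). Cish (5.83 ± 0.25) and Socs1 (6.13 ± 0.28) rose, and Socs6 fell (-1.36 ± 0.10).

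Cell death genes were mixed, with 25 of 41 tested higher (61%, against 27.6% of all genes) and 7 lower (17.1%, against 27.9%). These counts became 16 and 16 when scaled by library size alone. Ripk1 stood at 95.3, 99.4 and 74.3 CPM unstimulated, 90.9, 85.9 and 80.7 with LPS and 79.3, 81 and 75.1 with LPS/5z7, so that the groups overlapped. It was not called (-0.19 ± 0.12, adjusted p = 0.197, 95% interval -0.45 to 0.07), except without unstimulated library 7 (-0.31, adjusted p = 0.0246) and when scaled by library size alone. Mlkl, the executioner of necroptosis, rose from 10.1, 11.1 and 12 to 38.5, 37.1 and 32.8 CPM (1.71 ± 0.17, adjusted p = 1.89e-07). Casp4, the sensor of cytosolic LPS (2.48 ± 0.12), the death receptor gene Fas (2.59 ± 0.13) and Bcl2a1d, an anti-apoptotic BCL2 relative with near-identical copies in the mouse genome whose counts are therefore uncertain (5.42 ± 0.17), rose too. Bmf, a pro-apoptotic BH3-only gene, fell from 47.3, 40.8 and 36.1 to 2.85, 3.79 and 3.39 CPM (-3.64 ± 0.16, adjusted p = 4.33e-12) and stood above the 1.32, 1.3 and 1.32 CPM of the LPS libraries (1.33 ± 0.21, adjusted p = 0.000347). Casp9, the initiator caspase of the mitochondrial pathway, fell (-1.3 ± 0.10) and was likewise higher than with LPS (0.52 ± 0.10, adjusted p = 0.0017). Casp8, the initiator caspase downstream of death receptors, was not called (0.05 ± 0.08, 95% interval -0.13 to 0.22), nor was the survival gene Mcl1 (-0.14 ± 0.10). By library size alone both were called lower (-0.38 and -0.56, adjusted p = 0.00028 and 2.69e-05).

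MAP kinase and SRF immediate early genes, which ERK, p38 and the serum response factor switch on within minutes, moved in both directions. Of 48 tested, 16 were higher than unstimulated (33.3%, against 27.6% of all genes) and 20 lower (41.7%, against 27.9%). The median was -0.15, and the counts were 11 and 25 when scaled by library size alone. Against LPS, 38 of the 48 were lower and 1 higher, beside 6.79% and 7.03% of all genes; these 2 comparisons share the LPS/5z7 libraries. Fos, an AP-1 subunit, stood at 251, 259 and 262 CPM unstimulated, 20.2, 15.6 and 20.8 with LPS and 9.32, 9.53 and 7.67 with LPS/5z7. Fos fell by 4.86 ± 0.16 from unstimulated (adjusted p = 1.97e-13) and its difference from LPS was -1.08 ± 0.15 (adjusted p = 0.000107). Jun, its partner, stood at 107, 109 and 110.4, 20.2, 17.8 and 23.1 and 8.05, 7.75 and 9.45 CPM in the same order (-3.7 ± 0.15, adjusted p = 1.61e-12; against LPS -1.27 ± 0.15, adjusted p = 1.45e-05). Both AP-1 genes were thus lowest with LPS/5z7, highest unstimulated and in between with LPS, with no overlap. Csrnp1, an immediate early nuclear protein gene (4.01 ± 0.10), and Gadd45b, a stress sensor (4.37 ± 0.16), rose against unstimulated; Gadd45b was not called against LPS (-0.12 ± 0.14, 95% interval -0.42 to 0.18). Zfp36l2, an RNA-binding protein gene, fell (-4.17 ± 0.15).

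Dusp1, the phosphatase that turns off p38 and JNK, moved in opposite directions in the 2 treatments. It stood at 117, 120.0 and 96.2 CPM unstimulated, 689, 705 and 1082 with LPS and 37.5, 36.2 and 53.8 with LPS/5z7. Its change over unstimulated was 2.89 ± 0.19 with LPS and -1.39 ± 0.18 with LPS/5z7 (adjusted p = 6.27e-10 and 5.83e-06), and the difference from LPS was -4.28 ± 0.20 (adjusted p = 8.41e-10). The LPS/5z7 libraries were below all unstimulated and the LPS libraries above them. Zfp36l1, a protein that binds AU-rich elements and speeds mRNA decay, held 179, 161 and 180.5 CPM unstimulated, 118, 126 and 172 with LPS and 9.95, 12.1 and 14.7 with LPS/5z7. It fell by 3.83 ± 0.16 from unstimulated (adjusted p = 1.6e-12) and its difference from LPS was -3.5 ± 0.15 (adjusted p = 6.35e-10). Their promoters are shown as examples, from the same source and build. Other genes, Fos and Jun among them, were also lowest with LPS/5z7. Capitals mark a CRE match (TGACGTCA) in Dusp1 and an AP-1 match in Zfp36l1.
Dusp1, chr17:26508473-26508722, minus strand: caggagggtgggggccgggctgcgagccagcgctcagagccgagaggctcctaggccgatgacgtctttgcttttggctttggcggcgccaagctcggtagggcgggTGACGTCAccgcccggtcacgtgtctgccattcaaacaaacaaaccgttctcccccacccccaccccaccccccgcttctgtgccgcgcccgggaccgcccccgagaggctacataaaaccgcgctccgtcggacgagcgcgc
Zfp36l1, chr12:80113014-80113263, minus strand: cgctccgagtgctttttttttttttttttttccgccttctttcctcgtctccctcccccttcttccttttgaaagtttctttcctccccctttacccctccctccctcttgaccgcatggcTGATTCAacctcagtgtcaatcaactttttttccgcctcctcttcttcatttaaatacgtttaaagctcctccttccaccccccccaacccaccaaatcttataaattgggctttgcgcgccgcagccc
The CRE match begins at -143 in Dusp1 and the AP-1 match at -129 in Zfp36l1, and no kB or ISRE match lies in the bases shown for either. Over all 12215 windows, 3.04% held CRE and 5.30% AP-1. Among genes at least 2-fold higher with LPS/5z7 the shares were 2.48% and 8.56%, and among those at least 2-fold lower 3.04% and 5.85%. The immediate early list held CRE in 10.64% of 47 windows, kB in 2.13% and AP-1 in 4.26%.

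**Figure D3:**
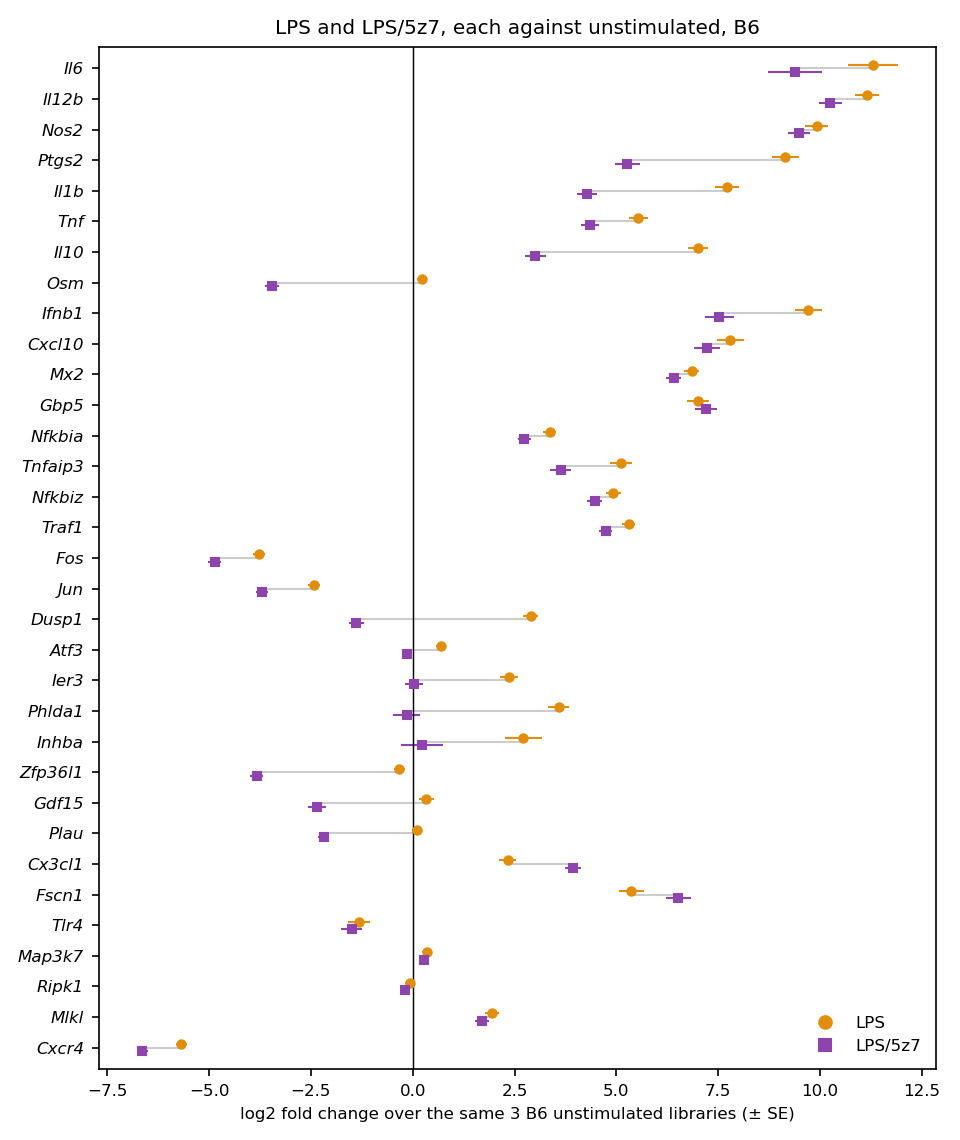
Log2 fold changes over the same 3 B6 unstimulated libraries, with LPS as circles and LPS/5z7 as squares, and bars for ± SE; both series share the unstimulated libraries. Gbp5, Ripk1 and Tlr4 lie close together in the 2 treatments, Il1b and Il10 rose by 4.28 and 3.01 with LPS/5z7 against 7.73 and 7.00 with LPS, and Dusp1 lies on opposite sides of 0; the value of Il6 rests on 2 unstimulated counts and depends on the prior count.

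Some genes raised by LPS, as 29.6% of all genes were, stood near the unstimulated level with LPS/5z7. Phlda1, a pleckstrin homology gene, held 1.47, 1.98 and 1.88 CPM unstimulated, 18.6, 17.9 and 28.5 with LPS and 1.76, 1.78 and 1.25 with LPS/5z7. Its change from unstimulated was -0.15 ± 0.32 with a 95% interval of -0.83 to 0.53 (adjusted p = 0.721), and from LPS -3.73 ± 0.27 (adjusted p = 8.06e-08). Ier3, an early response gene, held 21.2, 24.1 and 29.7, 103, 106 and 179 and 22.7, 21.6 and 32.3 CPM in the same order and Jag1, a Notch ligand, 89.3, 100.2 and 36.9, 393, 383 and 391 and 88.3, 92 and 76.6 CPM. For both, unstimulated and LPS/5z7 libraries overlapped, with 95% intervals of -0.41 to 0.48 and -0.38 to 0.73 around changes of 0.03 ± 0.21 and 0.18 ± 0.26. Inhba, the activin A subunit, was not called either (0.23 ± 0.52, interval -0.87 to 1.34). Csf3, the granulocyte growth factor G-CSF, had 4 counts in the 3 unstimulated and 4 in the 3 LPS/5z7 libraries, while the LPS libraries held 5.64, 6.74 and 10.3 CPM.

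Other genes went beyond both reference groups; those named here rank highest by the smaller of their 2 changes. Osm stood at 8.95, 9.37 and 11.3 CPM unstimulated, 11.6, 10.1 and 13.4 with LPS and 0.995, 0.947 and 0.713 with LPS/5z7 (-3.45 ± 0.17 from unstimulated, adjusted p = 1.84e-11; -3.69 ± 0.17 from LPS, adjusted p = 6.96e-10). Plau, the urokinase plasminogen activator, stood at 234, 282 and 259.7, 270.1, 276 and 285 and 61.2, 63.2 and 45.5 CPM in the same order (-2.19 ± 0.13 and -2.29 ± 0.13, adjusted p = 1.4e-10 and 3.74e-09). Plk3, a stress-responsive kinase, and Gdf15, a TGF-beta family stress cytokine, changed by -4.27 ± 0.21 and -2.35 ± 0.23 from unstimulated and by -2.75 ± 0.22 and -2.68 ± 0.23 from LPS. Spry2, an inhibitor of receptor tyrosine kinase signalling (-2.26 ± 0.20), Gadd45a, a growth arrest gene (-2.19 ± 0.17), and Frat2, a GSK3-binding protein (-4.36 ± 0.38), showed the same order. In these genes all LPS/5z7 libraries were below all libraries of both other groups.

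In the other direction, 8 genes were ranked highest by the smaller of their 2 changes among those at least 2-fold above both groups, and 5 of these had separate libraries. Cx3cl1, the chemokine fractalkine, stood at 1.27, 0.886 and 1.24 CPM unstimulated, 5.2, 5.08 and 6.76 with LPS and 15.5, 16.5 and 18.9 with LPS/5z7 (3.93 ± 0.20, adjusted p = 3.05e-11; 1.6 ± 0.17 above LPS, adjusted p = 5.83e-06). Fscn1, an actin-bundling protein of dendritic cell processes, stood at 0.449, 0.473 and 0.484, 19.2, 16.4 and 23.5 and 35.9, 36.3 and 58.4 CPM (6.52 ± 0.30 and 1.15 ± 0.20). Efna2, an ephrin ligand (4.14 ± 0.20 and 1.61 ± 0.17), Fgl2, a prothrombinase (3.15 ± 0.20 and 1.3 ± 0.18), and Btbd3 (1.22 ± 0.11 and 1.14 ± 0.11) were the others. The remaining 3, Lars2, Gm15564 and Mir6236, rest on LPS/5z7 library 3. Lars2, a mitochondrial leucyl-tRNA synthetase, held 1153, 167 and 54.8 CPM in libraries 3, 6 and 9 against 56.8, 71.1 and 83.9 unstimulated. Without library 3 their changes were 0.65, 0.93 and 0.84, none called (adjusted p = 0.38, 0.251 and 0.371).

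Inflammatory effectors, the enzymes, adhesion molecules and receptors of activated macrophages, were higher in 36 of 43 tested and lower in 2, with a median of 3.15. Acod1, which makes itaconate, went from 81, 124 and 49 to 5224, 5178 and 5127 CPM (5.93 ± 0.38, adjusted p = 5.78e-10), and Icam1, an adhesion molecule, from 207, 257 and 189 to 3727, 3709 and 4036 CPM (4.14 ± 0.14, adjusted p = 2.78e-13). Neither was called against LPS (-0.37 ± 0.31, 95% interval -1.03 to 0.28, and 0.13 ± 0.13, -0.14 to 0.39). Ptgs2, the inducible cyclooxygenase, rose from 1.55, 1.86 and 0.807 to 51.1, 47.8 and 72.6 CPM (5.27 ± 0.30, adjusted p = 1.18e-10) but lay far below the 854, 844 and 818 CPM of the LPS libraries (-3.88 ± 0.25, adjusted p = 2.62e-08). Cd40, a co-stimulatory receptor (5.78 ± 0.16), Vcam1, an integrin ligand (6.55 ± 0.19), Sdc4, a heparan sulfate proteoglycan (4.44 ± 0.18), and Plek, a platelet and leukocyte kinase substrate (3.1 ± 0.20), rose, while Ptgs1, the constitutive cyclooxygenase, fell (-0.81 ± 0.18). Genes of MHC and antigen presentation were higher in 21 of 23 with 0 lower and a median of 0.95 (12 and 2 by library size alone), among them Tap1, the peptide transporter (2.23 ± 0.13), and its partner Tapbp (1.47 ± 0.09).

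Receptors moved both ways. Among 30 chemokine and other G protein-coupled receptors 13 were higher (43.3%, against 27.6% of all genes) and 11 lower (36.7%, against 27.9%). Their median was 0.10, and the counts were 10 and 16 by library size alone. Adora2a, an adenosine receptor, went from 0.368, 0.502 and 0.645 to 67.6, 67.1 and 76.5 CPM (7.13 ± 0.19, adjusted p = 2.39e-14) and was level with the LPS libraries at 64.6, 67.7 and 71.4 CPM (0.05 ± 0.12, interval -0.21 to 0.31). Hcar2, a receptor for hydroxybutyrate and niacin, rose by 4.11 ± 0.12 and its difference from LPS was -1.71 ± 0.10 (adjusted p = 3.74e-09). Fpr1, the formyl peptide receptor (3.53 ± 0.14), rose, and S1pr1, the sphingosine-1-phosphate receptor, fell from 93.4, 88.8 and 74.2 to 17.2, 18.3 and 15.1 CPM (-2.34 ± 0.10, adjusted p = 2.05e-12). Of 50 macrophage surface and scavenger receptors 21 were higher and 8 lower (14 and 20 by library size alone); Msr1, scavenger receptor A (1.64 ± 0.11), and Tlr1 (1.62 ± 0.10) rose, and Cd300lf, an inhibitory receptor (-3.04 ± 0.16), Il6ra, the interleukin-6 receptor (-1.14 ± 0.10), and Mertk, the receptor for apoptotic cells (-0.98 ± 0.11), fell.

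Macrophage transcription factors were lower more often than higher, 17 against 12 of 35 (23 against 10 by library size alone). Their shares were 48.6% lower and 34.3% higher, beside 27.9% and 27.6% of all genes. Cebpa, a myeloid lineage factor (-3.54 ± 0.15), and Pparg, a lipid-sensing nuclear receptor (-1.74 ± 0.09), fell, as did Id2, an inhibitor of helix-loop-helix factors (-1.83 ± 0.11), which lay below LPS as well (-1.4 ± 0.10, adjusted p = 1.07e-07). Tfec (3.46 ± 0.11), Klf3 (1.79 ± 0.10) and Ikzf1, a zinc finger factor of lymphoid and myeloid cells (2.1 ± 0.13), rose to levels not called against LPS.

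Of 8 defining macrophage markers 2 were higher, Cd14 and Adgre1, the F4/80 antigen (0.61 ± 0.08), and 2 lower, Mertk and Csf1r, the M-CSF receptor (6 lower by library size alone). Each count is 25% of the list, beside 27.6% and 27.9% of all genes. Csf1r (-0.21 ± 0.08, adjusted p = 0.0412) was not called when library 1, 3, 4, 6 or 9 was left out (adjusted p between 0.0607 and 0.139). Nor was it called with DESeq2 size factors (adjusted p = 0.0522) or with no filter on low counts (0.132). With only the 6 libraries or only the 9 B6 libraries in the fit it was not called either (0.216 and 0.0896). Of 54 markers of 8 other cell types 18 had 0 counts in all 6 libraries, among them Cd3e of T cells, Ncr1 of natural killer cells and Fcer1a of mast cells, and 14 passed the filter on low counts. The 10 neutrophil markers summed to 148 to 158 CPM unstimulated and 158 to 179 CPM with LPS/5z7. Csf3r made up most of both sums, with 9551 counts unstimulated and 7086 with LPS/5z7. The 6 tested had a median log2 fold change of 0.51. Of these 6, 0 were called, but 4 were higher without unstimulated library 7 and 3 without LPS/5z7 library 9. Summed levels of the 8 T cell markers were 4.41 to 5.70 and 6.20 to 8.32 CPM, of the 6 B cell markers 21.6 to 30.1 and 18.3 to 25.4, of the 6 fibroblast markers 3.04 to 5.76 and 3.75 to 6.96, and of the 6 dendritic cell markers 0.753 to 0.886 and 1.99 to 3.39. Single genes made up the higher sums: Lck held 14 counts unstimulated and 134 with LPS/5z7, against 339 and 255 for Cd4, and Zbtb46 of dendritic cells held 21 and 122, against 18 and 8 for Clec9a. Of the 2 B cell markers tested 1 was lower, and 0 without library 7. Natural killer, mast cell and erythroid markers summed to at most 0.237 CPM in any library. Their part in the results was not tested.

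DNA replication and mitosis genes were lower in 25 of 41 tested (61%, against 27.9% of all genes) and higher in 5 (12.2%, against 27.6%). Their median was -0.47. Cdt1, a licensing factor (-2.08 ± 0.11), E2f2, an S phase transcription factor (-2.68 ± 0.21), and Ccnd1, cyclin D1 (-1.21 ± 0.10), fell. The members that rose included Mki67, the proliferation antigen Ki-67, from 48.1, 61 and 21.4 to 459, 470.2 and 439 CPM (3.38 ± 0.28, adjusted p = 1.94e-08), with library 7 lowest; Ccnd2, cyclin D2 (4.08 ± 0.18); and Cdk6, its kinase partner (2.19 ± 0.21). Targets of p53 were lower in 11 of 20 (55%) and higher in 5 (25%), with a median of -0.73. Sesn1, a stress-induced inhibitor of mTORC1, fell from 182, 187 and 238 to 20.2, 21.2 and 27 CPM (-3.15 ± 0.19, adjusted p = 1.8e-10) and Trp53inp1 fell by 2.95 ± 0.20, while Cdkn1a, the cell cycle inhibitor p21, rose from 342, 349.5 and 365 to 2844, 2911 and 3061 CPM (3.06 ± 0.10, adjusted p = 9.56e-14).

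Of 25 glycolysis and hypoxia genes 9 were higher and 3 lower (6 and 15 by library size alone): Slc2a6, a sugar transporter (3.48 ± 0.14), and Pfkfb3, the activator of phosphofructokinase (2.72 ± 0.16), rose; Irs2, an insulin receptor substrate (-1.58 ± 0.18), fell, also against LPS (-2.31 ± 0.18, adjusted p = 2.02e-07), and Txnip, a brake on glucose uptake, fell (-0.81 ± 0.10) but stood above LPS (1.15 ± 0.10, adjusted p = 4.9e-07). The glycolysis shares were 36% higher and 12% lower, beside 27.6% and 27.9% of all genes. Of 22 cholesterol synthesis genes 7 were higher (31.8%) and 4 lower (18.2%), or 5 and 12 by library size alone. Ch25h, which makes the oxysterol 25-hydroxycholesterol, rose by 4.91 ± 0.23 and differed from LPS by -1.95 ± 0.16 (adjusted p = 4.13e-07). Of 11 LXR and lipid efflux genes 2 were higher (18.2%) and 3 lower (27.3%), or 1 and 7 by library size alone. Ribosome biogenesis genes were higher in 18 of 40 and lower in 3 (7 and 17 by library size alone; 6 lower without library 7). Nuclear-encoded oxidative phosphorylation genes were higher in 2 of 36 and lower in 1, or 12 higher without library 7 and 21 lower by library size alone. Integrated stress response genes were higher in 13 of 23 and lower in 4 (7 and 8 by library size alone), with Nupr1, a stress-induced chromatin protein, at 4.42 ± 0.21 and Ppp1r15a, the phosphatase subunit GADD34, at 2.0 ± 0.14. NRF2 targets were higher in 4 of 19 and lower in 4 (12 lower by library size alone). Each count is 21.1% of the list, under the shares of all genes. Slc7a11, the cystine transporter, rose from 20.8, 23.9 and 6.29 to 375, 401 and 269 CPM (4.34 ± 0.43, adjusted p = 1.42e-07). Hmox1, heme oxygenase 1, fell (-0.71 ± 0.10).

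**Figure D4:**
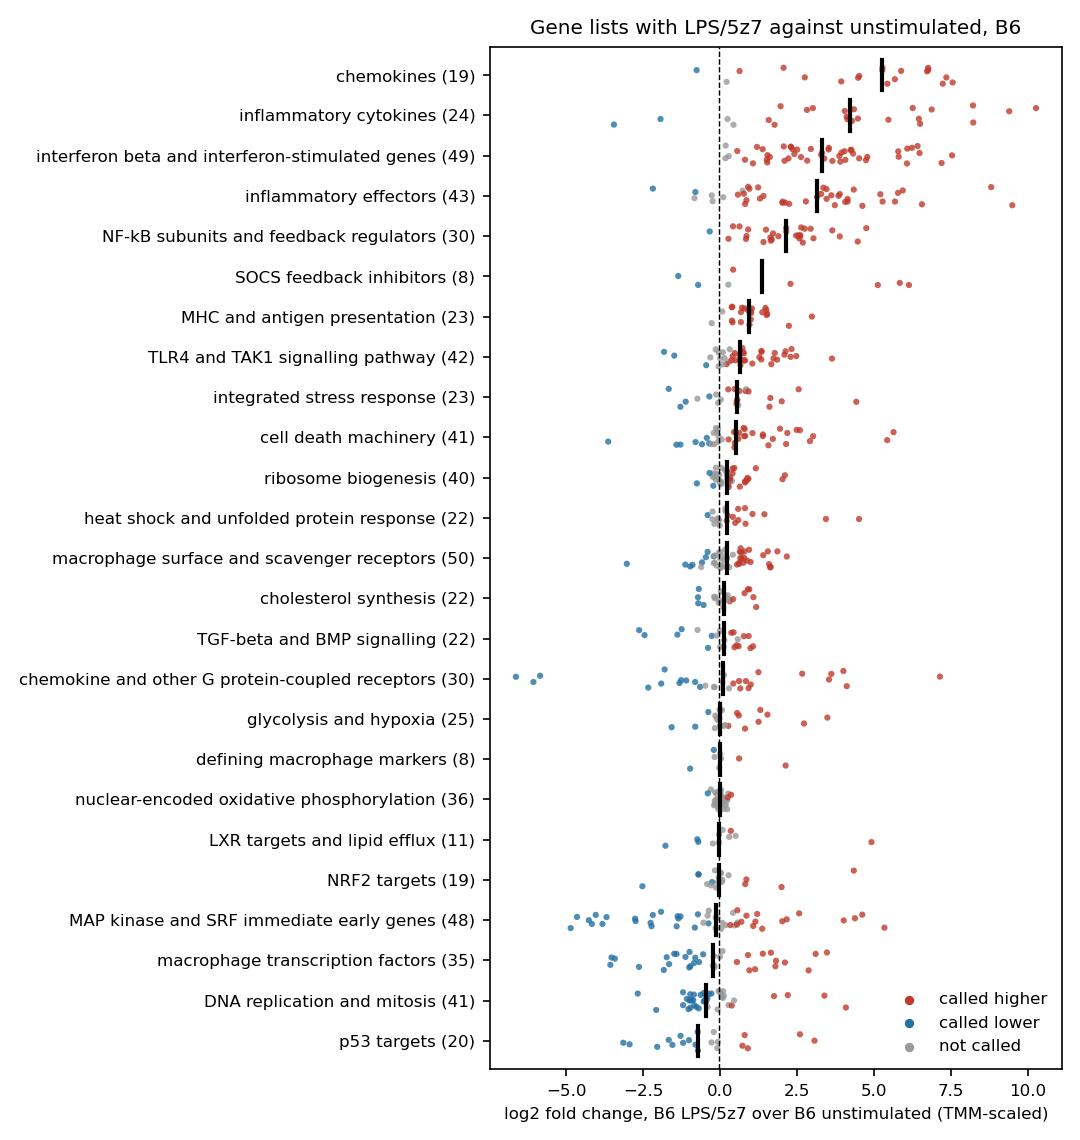
Each point is 1 tested member of a gene list, placed by its log2 fold change of B6 LPS/5z7 over B6 unstimulated and coloured by its call; black bars are list medians, the dashed line is the median of all genes (-0.05), and the number of tested members follows each name. Chemokines, cytokines and interferon genes have medians of 5.27, 4.20 and 3.30, while immediate early genes spread to both sides of 0.

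The same treatment was measured in T169A macrophages, in libraries that share none with the B6 comparison. There, 3678 genes (28.1%) were higher and 3591 (27.5%) lower with LPS/5z7 than unstimulated. Of the genes called higher, 3107 were called in both genotypes, 86.1% of the B6 and 84.5% of the T169A genes, and of those called lower 2987, which is 81.9% and 83.2%; 1 gene was called in opposite directions. Tested directly, the LPS/5z7 response differed between the genotypes in 0 genes by edgeR, with 461 genes (3.53%) at an unadjusted p under 0.05, and in 2 genes by DESeq2. The smallest edgeR p belonged to Ptges, the prostaglandin E synthase, whose change was 3.45 ± 0.12 in B6 and 4.24 ± 0.12 in T169A, a difference of 0.79 ± 0.16 (adjusted p = 0.83). The next was Tarm1, a receptor of myeloid cells, with a difference of 1.14 ± 0.24 (adjusted p = 0.83). Changes in T169A were 4.73 ± 0.26 for Il1b, 3.56 ± 0.26 for Il10, 7.43 ± 0.27 for Gbp5, -3.88 ± 0.16 for Zfp36l1 and -6.25 ± 0.13 for Cxcr4, beside 4.28 ± 0.25, 3.01 ± 0.26, 7.19 ± 0.27, -3.83 ± 0.16 and -6.64 ± 0.14 in B6.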

How the data were processed

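RNA of 18 libraries in 6 groups of 3 was sequenced; the labels tie table columns to groups, not to single samples. The deposited values are raw gene counts, made by the authors with Trim Galore, STAR and featureCounts on GRCm39, per the submitters' processing notes; these name no versions, strand setting or treatment of reads matching several genes, so overlapping, antisense and near-identical genes are uncertain. The table has 56953 gene IDs, 31172 with no count in any library; 52029 matched a GENCODE M21 symbol (99.77% of counts). Depth was 14.65 to 30.43 M counts. A floor of 3 counts is 0.1096 to 0.2048 CPM in the 6 libraries compared.

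The counts entered edgeR 4.0.16 (R 4.3.3): filterByExpr by group (13068 genes), TMM, a robust quasi-likelihood fit of 6 group means over all 18 libraries, and Benjamini-Hochberg adjustment over all genes at 0.05. SE was taken as the size of the log2 fold change over the root of its F value. The fit was tested on simulated data. Members and gene lists were chosen with earlier results of these data known. Named genes are, by a fixed rule, the 12 largest changes in each direction with separate libraries and 10 CPM or more in the higher group, up to 4 called genes per list and direction and 2 abundant ones not called, a fixed set including Ripk1, Tnf and Fos, genes at least 2-fold beyond both references, genes raised 4-fold by LPS but not called with LPS/5z7, the 3 smallest p between genotypes, and the 6 largest CPM changes per direction; the text names some of them. Alternatives were DESeq2 1.42.0, other scalings and filters, fits on fewer groups, blocks and each library left out; leaving out LPS libraries and testing all settings against LPS were added after seeing the data. Promoters come from RefSeq (GRCm38.p6). A few genes are not reported here.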

Additional observations from a re-analysis of the deposited data

How the results depend on the processing

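Against unstimulated, the count of genes higher ran from 2992 (only the 6 libraries in the fit) to 3963 and that of genes lower from 2697 to 3958 over all settings but scaling by library size alone (2075 and 7334, of which 2872 were at least 2-fold lower). That scaling drops the TMM factors, which were 1.24 to 1.27 in unstimulated and 0.93 to 0.94 in LPS/5z7 libraries. Leaving out 1 library gave 3252 to 3808 genes higher and 3212 to 3817 lower. Of 134 named genes called against unstimulated, 129 were called in all 14 alternative settings; the exceptions were Otulin, Csf1r, Lars2, Gm15564 and Mir6236. A further 7 named genes, not called against unstimulated, were called in 1 or more settings: Casp8, Ccl6, Cd68, Lyz2, Map3k7, Mcl1 and Ripk1. No call changed direction.

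Counts against LPS moved more. Genes higher numbered 2339 by library size alone, 591 with no filter on low counts, 493 with only the 9 B6 libraries, and 471 to 1351 with 1 library left out, against 919; genes lower numbered 516 by library size alone, 541 with only the 9 B6 libraries, and 629 to 1276 with 1 library left out, against 887. The cause was not tested. The difference between genotypes had 0 calls in all edgeR settings and 2 by DESeq2, Ptges and a gene with no matched symbol.

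No paired analysis by replicate letter was possible because the columns carry no letter. Library numbers in sets of 3 (1 to 3, 4 to 6, 7 to 9) gave correlations of deviations of -0.046, 0.121 and 0.102. Pairs across sets ran from -0.163 to 0.063. Sets 4 to 6 and 7 to 9 lay above every pair across sets, and set 1 to 3 did not. With 3 libraries per group, whether the numbers pair the samples is not settled. A replicate block by these sets gave 3963 genes higher and 3958 lower, against 3610 and 3647 without it. Levels under the floor of 3 counts per library were not detectable at this depth.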

Other observations

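Of 22 TGF-beta and BMP signalling genes tested, 9 were higher with LPS/5z7 than unstimulated (40.9%, against 27.6% of all genes) and 6 lower (27.3%, against 27.9%), or 4 and 10 when scaled by library size alone. The inhibitory SMAD genes both fell: Smad7 went from 30.8, 26.7 and 32.8 to 5.07, 5.74 and 5.59 CPM (-2.46 ± 0.18, adjusted p = 4.05e-09) and Smad6 from 31.5, 31.2 and 37.7 to 5.34, 4.38 and 6.42 CPM (-2.64 ± 0.20, adjusted p = 5.84e-09). Smad7 was also lower than with LPS (-1.17 ± 0.19, adjusted p = 0.000414), and Smad6 was not called against LPS (0.08 ± 0.22, 95% interval -0.38 to 0.55). Heat shock and unfolded protein response genes were higher in 12 of 22 and lower in 1 (5 and 10 by library size alone); 2 were lower without unstimulated library 1 or LPS/5z7 library 9. Hspa1a, an inducible HSP70 gene whose near-identical copy Hspa1b makes its counts uncertain, rose by 3.43 ± 0.14. Of 13 mitochondrially encoded transcripts 7 were tested and 4 were higher, with 0 lower; by library size alone 0 were higher and 1 lower, and over the other settings 1 to 6 were higher.

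Among genes with large drops in CPM, Apobec1, the cytidine deaminase that edits Apob mRNA, fell from 679, 677 and 688 to 206, 214 and 205 CPM (-1.71 ± 0.07, adjusted p = 9.95e-13), and Lhfpl2, a tetraspan membrane protein gene, from 563, 583 and 388 to 51.2, 55.6 and 48.6 CPM (-3.3 ± 0.14, adjusted p = 3.99e-12). The nuclear paraspeckle RNA Neat1 fell from 1072, 1004 and 1427 to 546, 571 and 714 CPM (-0.94 ± 0.17, adjusted p = 0.000132), and its LPS libraries held 525, 459 and 663 CPM. In all 3 genes the 2 groups did not overlap, and none was called against LPS.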
